A study of Homo sapiens with 2 samples.

Results

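The miR-181 family was measured by small RNA sequencing in the established human cell line A375, which derives from a melanoma. Its members were all rows of the deposited table whose precursor is mir-181a-1, mir-181b-1, mir-181a-2, mir-181b-2, mir-181c or mir-181d, with both arms of each hairpin. These were 12 of 1546 rows, 6 of 1095 hairpins and 10 of 1497 mature miRNA names, chosen by name and not by level. The series asks which microRNAs (miRNAs) regulate the BRAF-X1 transcript. It holds here 1 group of 2 libraries, labelled independent replicates, from A375 cells grown for 24 h and then kept with DMSO, a solvent used as vehicle, for 48 h. Other conditions were not analysed here, so no comparison between conditions was made and the only error is the spread between these 2 libraries, which may be technical. RPM here means reads per 1000000 assignments of a read to a row, and the recovered assignments numbered 10816826 in replicate 1 and 15428446 in replicate 2. One read was worth 0.0924 RPM in replicate 1 and 0.0648 RPM in replicate 2. Of 6 miRNAs listed as markers of melanocytes and melanoma, 5 stood at 10 RPM or more in both libraries, while miR-211-5p, made from an intron of a melanocyte gene, had 3 and 2 reads. Of 8 blood cell miRNAs, 6 had a row and 1, miR-486-5p, reached 10 RPM, with 171 and 200 RPM, and the 6 summed to 177 and 206 RPM. The prefix hsa- is written at the first mention of each sequence and dropped elsewhere.

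A miRNA hairpin is cut from a primary transcript and yields a duplex of its 5p and 3p arms. One arm, the guide, is kept in an Argonaute protein and pairs with messenger RNAs mainly through its seed, bases 2 to 8 from the 5′ end, while the other arm, the passenger, is mostly degraded. The miR-181 family has guides on the 5p arm, made from clusters at 3 loci, and is best known from blood cell development, where it tunes the sensitivity of T cell receptor signalling. The same guide can come from more than one locus, so its reads do not tell the loci apart. The passengers differ in sequence and do.

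The 4 guides are printed first because they share a seed, in capitals, and differ in a few bases behind it. All 10 names matched the RefSeq sequence table (GRCh38.p14).
hsa-miR-181a-5p: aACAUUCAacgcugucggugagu
hsa-miR-181b-5p: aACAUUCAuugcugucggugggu
hsa-miR-181c-5p: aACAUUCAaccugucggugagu
hsa-miR-181d-5p: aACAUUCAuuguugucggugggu
Counted from the 5′ end, with the first name's base before the position, miR-181a-5p and miR-181b-5p differ by A9U, C10U and A21G. MiR-181b-5p and miR-181d-5p differ by C12U alone. MiR-181c-5p has 22 bases against 23 in the other guides and is 1 edit, a missing base, away from miR-181a-5p. The 2 rarer guides are thus each a single edit from a far more abundant one. How many mismatches the authors' assignment allowed is not given in the sources used here, so the part that reads of miR-181a-5p or miR-181b-5p play in the values of miR-181c-5p and miR-181d-5p was not tested. One further name in the RefSeq table, miR-4262, has the same seed, and it has no value here.

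The 6 passengers are printed because they are the arms that separate the loci, again with bases 2 to 8 in capitals.
hsa-miR-181a-3p: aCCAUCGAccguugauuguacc
hsa-miR-181a-2-3p: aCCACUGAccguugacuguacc
hsa-miR-181b-3p: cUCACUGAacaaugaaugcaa
hsa-miR-181b-2-3p: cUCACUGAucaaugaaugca
hsa-miR-181c-3p: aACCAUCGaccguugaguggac
hsa-miR-181d-3p: cCACCGGGggaugaaugucac
MiR-181a-3p comes from mir-181a-1 and miR-181a-2-3p from mir-181a-2, and they differ by U5C, C6U and U16C. The first and second of these changes fall in bases 2 to 8, so these 2 passengers have different seeds. MiR-181b-3p comes from mir-181b-1 and miR-181b-2-3p from mir-181b-2. They differ by A9U and by 1 base in length (21 against 20), and they share bases 2 to 8 with each other and with miR-4420, which has no value here. Their separation thus rests on 1 internal base. MiR-181c-3p shares a run of 15 bases with miR-181a-3p but starts 1 base earlier, which shifts its bases 2 to 8. MiR-181d-3p is at least 8 edits from every other passenger of the family.

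The hairpins lie in 3 pairs. In GRCh38 with the GENCODE 29 annotation, MIR181A1 (chromosome 1, 198859044 to 198859153) and MIR181B1 (198858873 to 198858982) lie on the minus strand, 61 bases apart, inside an intron of MIR181A1HG, a long noncoding RNA gene. MIR181A2 (chromosome 9, 124692442 to 124692551) and MIR181B2 (124693710 to 124693798) lie on the plus strand, 1158 bases apart, in an intron of MIR181A2HG and, on the opposite strand, in an intron of NR6A1, a gene for a nuclear receptor. MIR181C (chromosome 19, 13874699 to 13874808) and MIR181D (13874875 to 13875011) lie on the plus strand, 66 bases apart, within an intron of the annotated gene NANOS3. The build behind the deposited values is not given in the sources used here. The RefSeq table held 5 of the 6 hairpin sequences, without MIR181B2, and all 5 have the same start and end in GENCODE 29. The 2 hairpins that share the miR-181a guide are shown whole, with both mature arms in capitals.
mir-181a-1: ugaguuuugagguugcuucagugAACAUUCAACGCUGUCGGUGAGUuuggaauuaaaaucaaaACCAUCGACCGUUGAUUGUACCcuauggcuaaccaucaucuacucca
mir-181a-2: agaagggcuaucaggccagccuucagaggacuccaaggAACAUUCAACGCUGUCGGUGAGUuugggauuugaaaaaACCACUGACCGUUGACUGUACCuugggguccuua
The 2 hairpins are identical over the guide, 1 base before it and 4 bases after it, 28 bases in all. A read within that stretch fits both hairpins. In both, 18 of the 23 guide bases were paired in the predicted minimum free energy fold, which was -35.9 kcal/mol for mir-181a-1 and -53.7 kcal/mol for mir-181a-2, both of 110 bases. For the pair that is told apart by its guides as well, the fold was -45.2 kcal/mol for mir-181c (110 bases, 17 of 22 guide bases paired) and -68.1 kcal/mol for mir-181d (137 bases, 18 of 23 paired).

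The family was abundant and its 10 names spanned levels from 28068 RPM on average down to a few reads. Where a guide had rows for 2 hairpins, the higher row was used. The family held 5.46% of the RPM in replicate 1 and 4.02% in replicate 2, a mean of 4.74% ± 1.02 (SD, n = 2), of a total with 1 value per mature name. Of the 10 names, 8 stood at 10 RPM or more in both libraries, beside 22.4% of all names in the table. The 2 below that level were passengers, miR-181b-2-3p and miR-181d-3p. All values that follow are RPM levels, given for replicate 1 and then replicate 2. Adapter ligation favours some sequences, so levels of different names are compared as RPM and not as molecules.

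**Figure D1:**
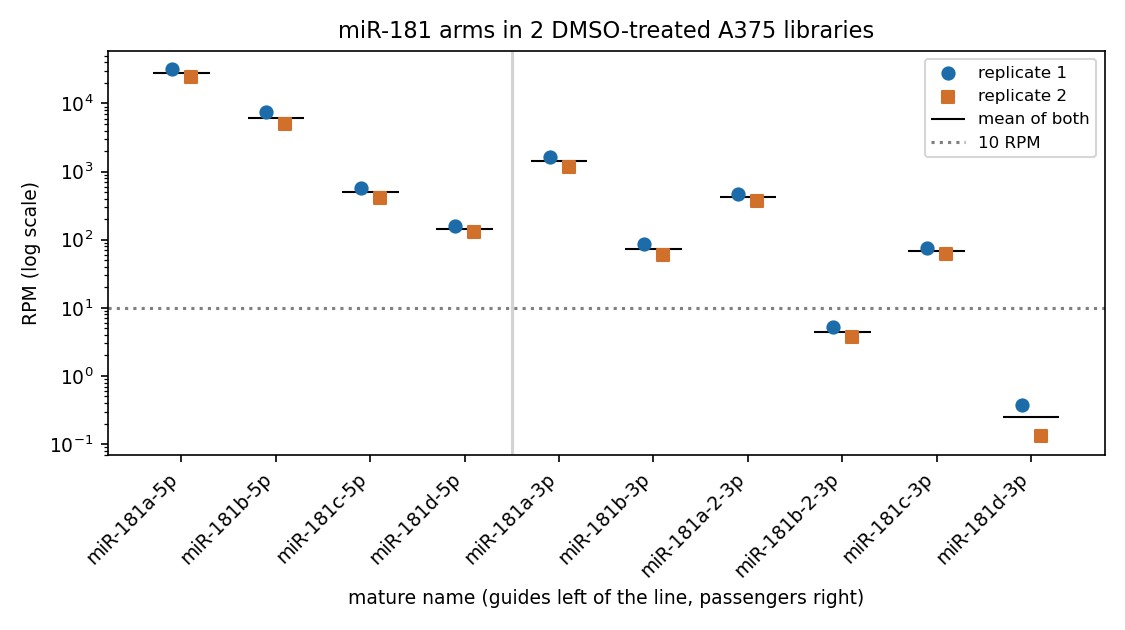
RPM (log axis) of each miR-181 name in both libraries, guides on the left and passengers on the right. Points are single libraries, short lines are means of both, and the dotted line is 10 RPM. Each name is higher in replicate 1 than in replicate 2, and only miR-181b-2-3p and miR-181d-3p lie under the dotted line.

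Among the guides, miR-181a-5p had 31917 and 24219 RPM (345238 and 373660 reads), and it ranked 8 among all names by mean RPM. MiR-181b-5p had 7390 and 5001 RPM and ranked 27. MiR-181c-5p had 582 and 413 RPM and ranked 88. The least abundant guide, miR-181d-5p, had 160 and 132 RPM and ranked 141. The ranges of the 4 guides did not overlap between any pair. MiR-181a-5p made up 80.5% ± 1.18 (SD, n = 2) of the guide RPM, miR-181b-5p 17.6% ± 1.17, miR-181c-5p 1.42% ± 0.0458 and miR-181d-5p 0.421% ± 0.0311. With the rows of both hairpins summed, miR-181c-5p made up 0.720% and miR-181d-5p 0.213% of the guide RPM. Under either treatment most of the guide RPM belonged to miR-181a-5p and miR-181b-5p, the guides encoded at both chromosome 1 and chromosome 9. By mean RPM, miR-181a-5p stood between miR-22-3p (41584 and 35006 RPM) and miR-10a-5p (22335 and 24738 RPM). It lay above miR-10a-5p in replicate 1 and below it in replicate 2, so that order was not resolved. MiR-181b-5p stood between miR-125a-5p (5901 and 6846 RPM) and miR-148a-3p (5146 and 7161 RPM), and these 3 also changed order between the libraries.

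Among the passengers, miR-181a-3p, from chromosome 1, had 1655 and 1181 RPM (17903 and 18225 reads). It was thus above the guides miR-181c-5p and miR-181d-5p in both libraries, by 2.84-fold and 2.86-fold for miR-181c-5p. MiR-181a-2-3p, from chromosome 9, had 469 and 370 RPM (5078 and 5713 reads). It lay below miR-181c-5p in each library, by 1.24-fold and 1.12-fold, but their ranges across libraries overlapped. MiR-181b-3p had 87.5 and 60.3 RPM and miR-181c-3p had 76.5 and 61.7 RPM. These 2 changed order between the libraries and were not resolved. MiR-181b-2-3p had 5.18 and 3.69 RPM (56 and 57 reads). MiR-181d-3p had 0.370 and 0.130 RPM, from 4 and 2 reads, which allow 1.09 to 10.2 and 0.242 to 7.22 reads (exact 95% Poisson intervals, counting error only).

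With 2 libraries, an exact permutation test over libraries cannot reach 0.05. With the values of both names treated as separate groups, this exact test gave p = 0.33, the smallest value possible in that form, for each of the 3 pairs compared (miR-181a-5p with miR-181b-5p, miR-181c-5p with miR-181d-5p, miR-181a-3p with miR-181a-2-3p, two-sided), and 0.33 after Benjamini-Hochberg adjustment over the 3. With the 2 names kept together within each library, the exact test gave p = 0.5, again the smallest possible, for each pair before and after adjustment. In each pair the first name was higher in both libraries and the ranges did not overlap.

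The rows of a guide under its 2 hairpins held nearly the same reads. MiR-181a-5p had 345238 reads under mir-181a-1 and 345234 under mir-181a-2 in replicate 1, and 373660 and 373653 in replicate 2. The rows thus differed by 4 and 7 reads. MiR-181b-5p had 76810 reads under mir-181b-1 and 79938 under mir-181b-2 in replicate 1, and 74108 and 77159 in replicate 2. Here the row of mir-181b-2 was higher by 3128 and 3051 reads, 3.91% and 3.95% of the higher row. The passenger of the same hairpin, miR-181b-2-3p, had 56 and 57 reads, and that of mir-181b-1, miR-181b-3p, had 947 and 931. The guide rows of the b pair and its passengers therefore differed in opposite directions, in both libraries. Every recovered value was a whole number of reads, odd counts included, such as 827 in replicate 1 for miR-181c-3p, which has 1 hairpin row. Whether the same reads stand in both rows or were split evenly between them was not tested. A split would make the guide levels used here too low by up to 2-fold. The guide rows thus do not give the output of a locus.

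The passengers were then set side by side as the arms that come from 1 locus each. The chromosome 1 locus held most of the passenger reads, the chromosome 9 locus held most of the rest, and the chromosome 19 locus held the least. For chromosome 1, miR-181a-3p and miR-181b-3p summed to 18850 and 19156 reads, 76.0% (95% exact Clopper-Pearson interval 75.4 to 76.5) and 74.0% (73.5 to 74.6) of the family's passenger reads. For chromosome 9, miR-181a-2-3p and miR-181b-2-3p summed to 5134 and 5770 reads, 20.7% (20.2 to 21.2) and 22.3% (21.8 to 22.8). For chromosome 19, miR-181c-3p and miR-181d-3p summed to 831 and 954 reads, 3.35% (3.13 to 3.58) and 3.69% (3.46 to 3.92). The order of the loci was the same in both libraries, and the differences between loci were far larger than the spread between libraries. A passenger level depends on how much of the arm is kept as well as on how much is made, so these are shares of passenger reads and not of transcription.

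**Figure D2:**
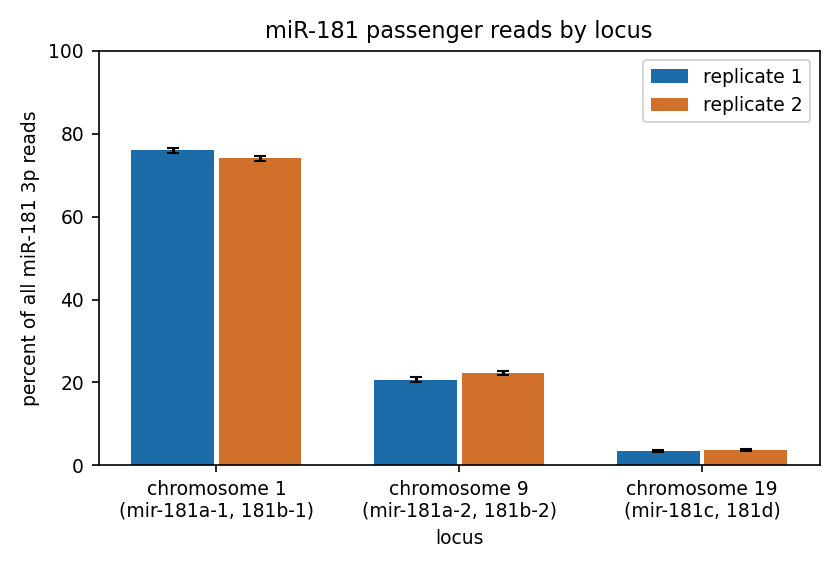
Share of all miR-181 3p reads (percent) from each locus in each library. Error bars are exact 95% Clopper-Pearson intervals for counting error. Chromosome 1 holds 76.0% and 74.0%, chromosome 9 20.7% and 22.3%, and chromosome 19 3.35% and 3.69%.

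For the miR-181a guide, miR-181a-3p exceeded miR-181a-2-3p by 3.53-fold in replicate 1 (95% interval 3.42 to 3.64, counting error only) and 3.19-fold in replicate 2 (3.10 to 3.29), or 1.74 ± 0.10 on the log2(RPM + 1) scale (SD, n = 2). For the miR-181b guide, miR-181b-3p exceeded miR-181b-2-3p by 16.9-fold (12.9 to 22.6) and 16.3-fold (12.5 to 21.7). Both guides thus had the higher passenger on chromosome 1, and the ratio was larger for the b pair in both libraries, with intervals that did not overlap. Within the chromosome 1 locus, miR-181a-3p exceeded miR-181b-3p by 18.9-fold (17.7 to 20.2) and 19.6-fold (18.3 to 20.9). Within the chromosome 9 locus, miR-181a-2-3p exceeded miR-181b-2-3p by 90.7-fold (69.7 to 120.2) and 100.2-fold (77.2 to 132.5). The guides themselves differed less, miR-181a-5p being 4.32-fold and 4.84-fold above miR-181b-5p. All ratios to miR-181b-2-3p rest on its 56 and 57 reads, and 1 internal base separates it from miR-181b-3p. The part that reads of miR-181b-3p play in the values of miR-181b-2-3p was not tested.

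Within the chromosome 19 locus, miR-181c-5p exceeded miR-181d-5p by 3.64-fold (3.45 to 3.84) and 3.13-fold (2.98 to 3.30). The passengers of this pair were much further apart, miR-181c-3p having 827 and 952 reads against 4 and 2 for miR-181d-3p. That is 206.8-fold (80.4 to 760.6) and 476-fold (131.4 to 3936), where the intervals are wide because of the few reads.

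Of 14 ratios between members computed in each library, 8 differed between the libraries by Fisher's exact test on the read pairs, two-sided (adjusted p under 0.05 over the 14), which covers counting error only. The ratio of miR-181a-5p to miR-181b-5p moved from 4.32 to 4.84 (Fisher's exact test, adjusted p = 1.04e-92), a change of small size that the depth of these 2 guides resolves. The ratio of the miR-181a passengers moved from 3.53 to 3.19 (Fisher's exact test, adjusted p = 2.59e-05), and that of miR-181c-5p to miR-181d-5p from 3.64 to 3.13 (adjusted p = 0.00018). The ratio of the miR-181b passengers gave an adjusted p of 0.923 in Fisher's exact test, and that of miR-181a-3p to miR-181b-3p 0.59.

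The level of passenger relative to its guide differed widely among the 4 guides. Summed over the hairpins of a guide, passengers stood at 6.66% and 6.41% of miR-181a-5p, at 1.25% and 1.28% of miR-181b-5p, at 13.1% and 14.9% of miR-181c-5p, and at 0.231% and 0.0983% of miR-181d-5p. The ranges of the 4 did not overlap, and the highest was that of miR-181c. In 99 other hairpins with a summed level of 100 RPM or more and no arm shared with another hairpin, the lower arm stood at a median of 3.19% of the higher arm, with quartiles at 0.792% and 17.2%. Of these 99, 30 had a higher percentage than miR-181c and 89 a higher percentage than miR-181d. The 2 hairpins on chromosome 19, 66 bases apart, thus stood on opposite sides of that median. For miR-181a it was 38 of 99, and for miR-181b 65 of 99. The 5p arm was the higher arm in both libraries for the hairpins that share no guide, by 7.62-fold and 6.70-fold for mir-181c and by 432.2-fold and 1018-fold for mir-181d. For the other 4 hairpins, arm ratios of single hairpins could not be resolved, because the guide row can hold reads that fit 2 hairpins. With the rows of both hairpins summed, passengers stood at 3.27% of miR-181a-5p and 0.647% of miR-181b-5p on average, and the order of the 4 guides stayed the same. The places of miR-181a and miR-181b among the 99 hairpins were counted with the higher guide row only. Summed, miR-181a lies close to the median of 3.19%, and miR-181b lies below the lower quartile of 0.792%.

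**Figure D3:**
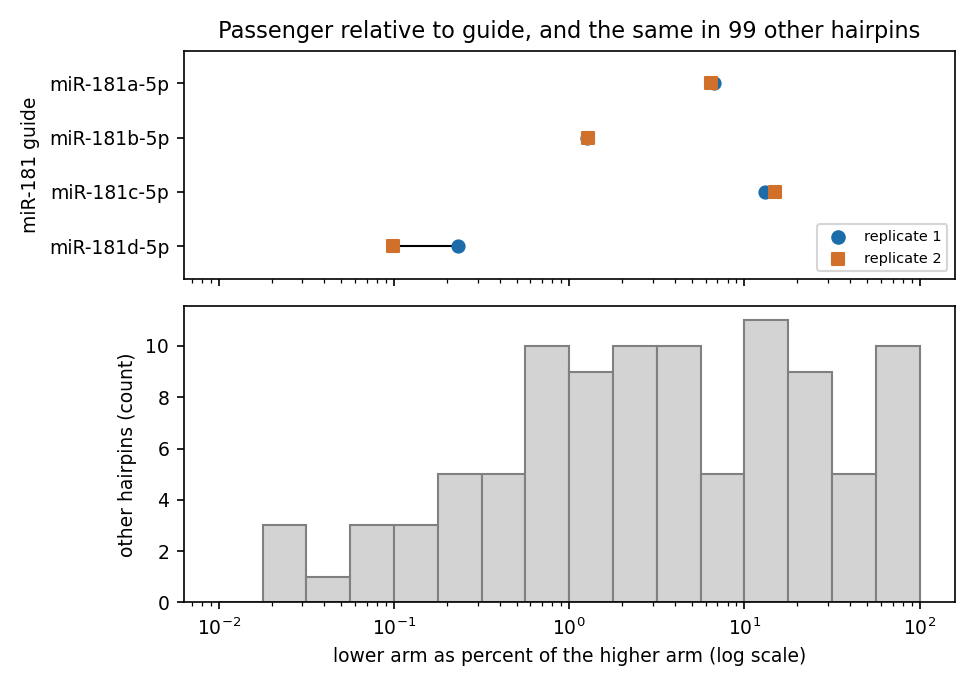
Upper panel, passenger level as a percentage of the guide level (log axis) for the 4 miR-181 guides in each library. Lower panel, the lower arm as a percentage of the higher arm in 99 other hairpins without a shared arm, as counts of hairpins. MiR-181c-5p lies near 14% and miR-181d-5p below 0.3%.

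Other guides made from 2 hairpins gave a setting for the locus ratios. In 10 such guides at 100 RPM or more, 8 of them outside the family, both hairpins had an other arm of their own. The ratio between the 2 other arms ran from 1.03 for miR-30c-5p, where the order changed between the libraries, to 48.6 for miR-16-5p. With 3.38 from the mean RPM, miR-181a-5p had the third lowest ratio, and miR-181b-5p, with 16.7, was number 7 of the 10. In replicate 1 alone miR-181b-5p lay above miR-29b-3p (16.9 against 15.8) and in replicate 2 below it (16.3 against 29.1), so that order was not resolved. The 2 passengers of miR-181a-5p summed to 1838 RPM, the highest sum of the 10, so its locus ratio rested on more reads than any other in this set.

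**Figure D4:**
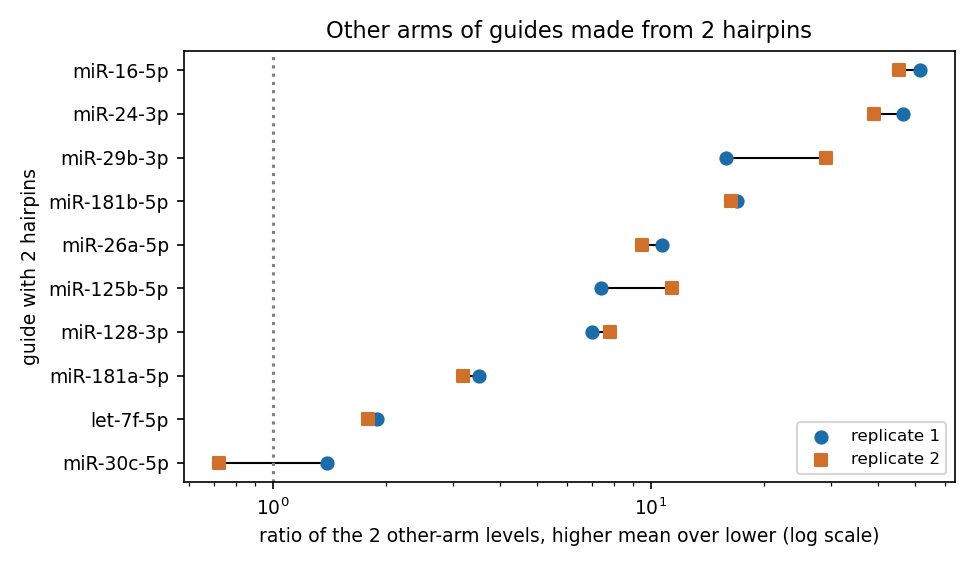
Ratio of the 2 other-arm levels (log axis) for 10 guides made from 2 hairpins, in each library, the arm with the higher mean over the other. MiR-181a-5p lies at 3.53 and 3.19 and miR-181b-5p at 16.9 and 16.3.

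All 10 names of the family were higher in replicate 1 than in replicate 2. The ratio was 1.32 for miR-181a-5p, 1.48 for miR-181b-5p, 1.41 for miR-181c-5p and 1.21 for miR-181d-5p. Among the passengers it was 1.40 for miR-181a-3p, 1.27 for miR-181a-2-3p, 1.45 for miR-181b-3p and 1.24 for miR-181c-3p. On the log2(RPM + 1) scale the median difference of the 8 names with a mean of 10 RPM or more was 0.44, beside 0.10 over all 346 names at that level, of which 59.2% were higher in replicate 1. Members share precursors and reads, so they are not 8 separate observations. Scaling by the median ratio of expressed names, 1.07, left all 10 names higher in replicate 1, by 1.23-fold for miR-181a-5p and 1.38-fold for miR-181b-5p. After this scaling 50.3% of the 346 names were higher in replicate 1, a share that scaling by a median itself sets close to even. Of the 10 names, miR-181b-2-3p and miR-181d-3p lie below 10 RPM and rest on few reads.

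To compare the libraries name by name, a two-sided Fisher's exact test set the reads of each name against the remaining assignments of its library, which compares these libraries and no condition. Of 9 members with 10 or more reads in sum, 0 passed an adjusted p under 0.05 with a fold above 2, beside 4.6% of the 869 names tested. With a fold above 1.5 the count by Fisher's exact test was also 0 of 9, beside 9.32% of names. With no fold limit, 8 of 9 passed in Fisher's exact test, all higher in replicate 1, beside 34.5% of names in either direction and 21.2% in that direction. The count at an unadjusted p under 0.05 was also 8 of 9, beside 40.7% of names. The exception was miR-181b-2-3p (adjusted p = 0.19 in Fisher's exact test), with 56 and 57 reads. MiR-181d-3p, with 6 reads in all, was not tested. The differences between the libraries were thus beyond counting error for 8 names and below 1.5-fold for all 9.

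**Figure D5:**
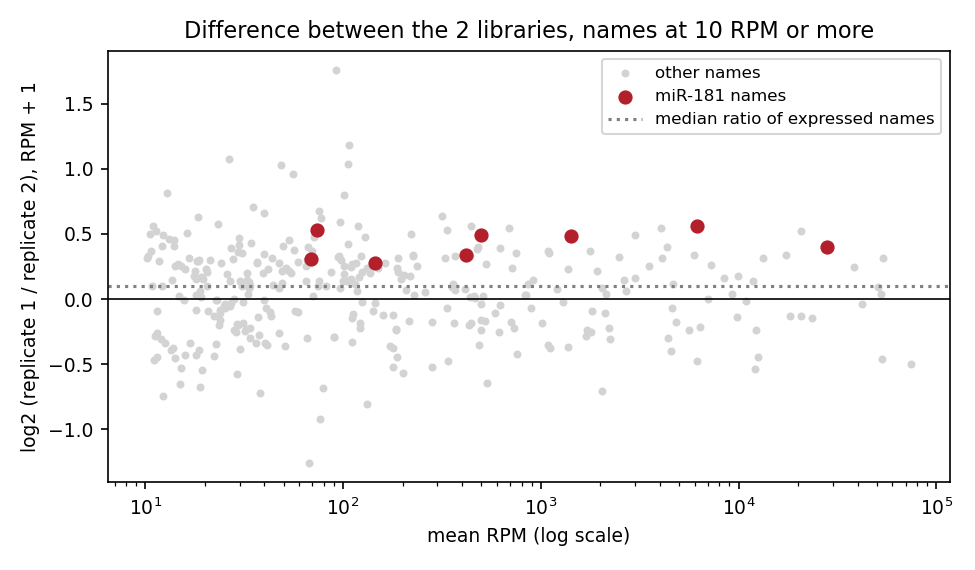
Difference between the libraries, log2 of replicate 1 over replicate 2 with 1 RPM added, against mean RPM (log axis) for 346 names at a mean of 10 RPM or more. Red points are the 8 miR-181 names, all above the dotted line at the median ratio of expressed names.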

How the data were processed

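Small RNA libraries of 2 A375 cultures were made, per the labels' protocols, from 1000000 cells seeded in 10 cm dishes, with RNA from the miRNeasy Mini kit and standard Illumina library steps. CASAVA 1.8 and cutadapt 1.2.1 are named in the submitters' processing notes. Not given in the sources used here are the aligner, miRNA release, genome build, mismatches allowed and the handling of reads that fit several hairpins. The authors deposited RPM for each pair of hairpin and mature name, written with decimal commas, and the authors' columns each sum to 1000000.

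All values were whole multiples of the lowest value above 0 (100% within 0.01 reads), which gave the depth, 10816826 and 15428446 read assignments, where 1 read is 0.0924 and 0.0648 RPM. Each mature name took its highest hairpin row, since copies were nearly equal. Whether copies held shared or evenly split reads was not tested. The total reduced in this way was 77.6% and 78.3% of the deposited one. Other columns of values numbered 0. Logarithms used a pseudocount of 1 RPM, which understates differences of low names. Fisher's exact test covered the 869 names with 10 or more reads over both libraries, with Benjamini-Hochberg adjustment and folds after adding 0.5 reads. Tested on simulated data for this comparison, with 200 of 869 names changed by 3-fold, it recovered 200 and called 2 of 625 unchanged names. The simulated reads varied by counting error alone, and only names averaging at least 10 RPM were changed. Recovery of rarer names was thus not tested. The low number of false calls does not carry over to the real replicates. There 4.6% of the 869 names passed with a fold above 2, and 34.5% with no fold limit. Read-based intervals and tests include only counting error, since PCR reads are not independent molecules. Python 3.11.15, SciPy 1.17.1 and ViennaRNA 2.7.2 (folds, default settings) were used.

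The members, lists and tests were chosen with earlier results of these data known. Named miRNAs were all members, names with the guides' seed, the neighbours of miR-181a-5p and miR-181b-5p by mean RPM, and the extremes among guides with 2 hairpins. MiR-4420, with the seed of the b passengers, was added later. Alternatives covered the treatment of copies, denominators, pseudocounts, scaling, fold and RPM limits and leaving out each replicate.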

Additional observations from a re-analysis of the deposited data

How the results depend on the processing

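Of 142 alternative values for 37 results, 127 were labelled the same. These kept their direction and side of the threshold, stayed within 1 SD of the reported value or, for counts, stayed within 1.5-fold of it. None changed sign. Many of the 127 could not have come out otherwise, so this count does not measure robustness. With 2 libraries, leaving out 1 always keeps a mean within 1 SD. Names with 1 hairpin row are the same under each treatment of copies, and the pseudocount does not enter Fisher's exact test. The family's share of RPM moved from 4.74% to 7.09% with copies summed, which counts a read again if it stands in both rows, and to 3.69% of the deposited total. It ranged from 4.02% to 5.46% over leaving out each replicate. The log2 ratio of the miR-181a passengers ranged from 1.67 to 1.82 over those 2 settings. The number of members that differed between the libraries in Fisher's exact test was 0 with a fold above 2 or 1.5. It was 8 with no fold limit, beside 34.5% of the 869 names tested. With no fold limit it was also 8 after scaling by the median ratio, an alternative chosen after seeing the data. The share of all names that passed after that scaling was not computed, so this last count has no background. The number of names at 10 RPM or more was 8 without either replicate. In both libraries, 9 names stood at 1 RPM or more and 6 at 100 RPM or more. Summing copies gave 56135 RPM for miR-181a-5p and 12148 RPM for miR-181b-5p, lowered the guide shares of miR-181c-5p to 0.720% and of miR-181d-5p to 0.213%, and, in an alternative chosen after seeing the data, lowered the passengers to 3.27% of miR-181a-5p and 0.647% of miR-181b-5p. The arm ratios of mir-181d depended most on the pseudocount, with a log2 of 6.88 at 1 RPM, 8.79 at 0.1 RPM and 3.92 at 10 RPM, since its 3p arm had 4 and 2 reads. No paired comparison of conditions was possible because both libraries belong to 1 group. Names paired within each library gave p = 0.5 in the exact permutation test, the smallest value possible in that form. Depth limits miR-181d-3p and miR-181b-2-3p.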
